A study of Mus musculus with 6 samples.

Results

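Adiponectin is a hormone that fat cells secrete, and the 10 genes described here are its own gene Adipoq, the receptor genes Adipor1 and Adipor2, the co-receptor gene Cdh13, the adaptor gene Appl1 and 5 subunit genes of the kinase AMPK (Prkaa1, Prkaa2, Prkab1, Prkab2 and Prkag1). They were taken by symbol from the 15667 genes of the deposited table, all 10 were found, and all 10 were among the 14306 genes tested. RNA-seq was performed on ear skin from the tick bite site of WT mice (Adipo+/+, n = 3) and adiponectin KO mice (Adipo-/-, n = 3), to ask how the skin transcriptome differs when the host lacks the hormone. All animals were female littermates of B6;129-Adipoq tm1Chan/J stock bred from heterozygous pairs and were 7 to 8 weeks old, and the KO mice carry the null allele in every tissue. Each mouse carried 10 Ixodes scapularis ticks for 48 h before a 3.5 mm punch was taken, and every library in both groups is bitten skin. A library corresponds to a mouse, so that p-values measure the spread between 3 animals a group.

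Adiponectin circulates as trimers, hexamers and larger multimers and acts on distant tissues. AdipoR1 and AdipoR2, membrane proteins of the PAQR family, bind it, carry a ceramidase activity and signal through the adaptor APPL1 to AMPK and PPAR-alpha, whereas T-cadherin (the product of Cdh13) binds the large multimers at the surface of endothelial and muscle cells. AMPK is a sensor of low cellular energy made of a catalytic alpha, a scaffold beta and a nucleotide-binding gamma subunit, and phosphorylation activates it, so transcript levels do not report its activity.

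Values are given as CPM, a gene's reads per 1000000 reads of its library. The deposited values implied 3403706 to 6591516 reads per library. Epidermal keratinocyte markers were abundant, with Krt10 at 8608 to 11768 CPM in WT and 10727 to 15152 CPM in KO. All 9 tested had a higher mean log2(CPM + 0.5) in KO (median difference 0.23), whereas 56.7% of all genes tested were lower. The limma unadjusted p was below 0.05 for 0 of the 9, against 2.88% of all genes. Markers of fat and of skeletal muscle varied between the libraries. The 16 adipocyte markers summed to 1053 to 1549 CPM in WT and 746 to 1422 CPM in KO, and the 18 skeletal muscle markers summed to 6444 to 8416 CPM in WT and 3994 to 7970 CPM in KO. WT replicate 3 stood apart by hair follicle markers, whose mean log2(CPM + 0.5) was 8.45 there against -0.15 and 0.20 in WT replicates 1 and 2 and 4.02 to 6.93 in KO. In bulk skin, fewer cells of a type and less RNA per cell cannot be told apart.

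The stretches of 250 bases before a RefSeq transcript start are shown for the hormone, the more abundant receptor and both catalytic AMPK subunits, because they set the hormone gene apart from the genes of its signalling chain (RefSeq, GRCm38.p6, 5′ to 3′ on the strand of the gene). Capitals mark CG dinucleotides. Adipoq and Prkaa1 lie on the plus strand, as does Adipor1 (the first of its 2 listed starts), and Prkaa2 lies on the minus strand.
Adipoq promoter, chr16:23146286-23146535: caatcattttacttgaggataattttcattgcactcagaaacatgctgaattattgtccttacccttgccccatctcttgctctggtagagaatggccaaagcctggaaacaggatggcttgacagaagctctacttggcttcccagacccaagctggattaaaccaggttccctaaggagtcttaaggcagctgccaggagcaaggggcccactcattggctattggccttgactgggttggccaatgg
Adipor1 promoter, chr1:134415128-134415377: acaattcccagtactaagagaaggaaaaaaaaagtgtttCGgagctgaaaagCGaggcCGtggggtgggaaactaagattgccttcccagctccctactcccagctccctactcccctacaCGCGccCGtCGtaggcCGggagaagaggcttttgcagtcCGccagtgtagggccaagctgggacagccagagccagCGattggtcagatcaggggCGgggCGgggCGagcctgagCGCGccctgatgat
Prkaa1 promoter, chr15:5143611-5143860: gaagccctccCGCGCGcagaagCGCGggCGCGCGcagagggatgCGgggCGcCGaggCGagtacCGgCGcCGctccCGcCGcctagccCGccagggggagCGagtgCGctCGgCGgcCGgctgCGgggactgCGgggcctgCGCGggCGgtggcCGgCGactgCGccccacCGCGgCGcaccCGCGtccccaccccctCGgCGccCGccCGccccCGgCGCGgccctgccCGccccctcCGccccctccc
Prkaa2 promoter, chr4:105109899-105110148: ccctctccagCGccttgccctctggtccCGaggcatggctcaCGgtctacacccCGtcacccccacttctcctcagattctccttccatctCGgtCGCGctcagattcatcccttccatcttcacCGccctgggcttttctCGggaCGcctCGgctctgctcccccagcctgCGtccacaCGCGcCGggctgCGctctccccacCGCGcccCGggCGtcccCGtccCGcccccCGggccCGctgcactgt

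The Adipoq stretch held 0 CG dinucleotides, which was also true of 7.86% of the 32841 stretches of this length in the RefSeq table. RefSeq stretches were listed for 8 of the 10 genes, and the 7 genes other than Adipoq held 12 (Prkag1) to 45 (Prkaa1) CG dinucleotides, against a median of 6 over all stretches. The Prkaa1 stretch was 85.2% G and C, and 99.6% of all stretches held fewer CG dinucleotides. Searched on both strands, the CCAAT box (CCAAT) occurred 3 times in the Adipoq stretch, and 33.9% of all stretches held at least 1 and 2.79% at least 3. The GC box (GGGCGG, which itself contains a CG dinucleotide) was found in 5 of the 8 genes and in 32.7% of all stretches, and was not found in the stretches of Adipoq, Adipor2 or Prkab1. The Adipor2 stretch precedes a transcript that starts inside the gene as listed, and the Prkab1 stretch overlaps the 5′ end of its gene as listed. The TATA box (TATAAA) and the E-box (CACGTG) were found in 0 of the 8 genes, against 12.4% and 6.02% of all stretches. These matches describe letters only.

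Of the 10 genes, Adipoq alone differed between WT and KO skin at an adjusted p below 0.05, and the receptors, the co-receptor, the adaptor and the AMPK subunits did not. Over all genes tested, 0.014% reached that level, and 0.00699% did so with a lower level in KO. Adipoq (chromosome 16, 23146536 to 23157968, plus strand, 3 exons) was examined first, since the KO allele targets it. WT replicates 1, 2 and 3 held 30.5, 63.7 and 49.6 CPM, from 126, 313 and 301 reads. KO replicates 1 and 3 held 0 reads, which allows up to 0.455 and 0.881 CPM at the depth of these libraries (3 reads), and KO replicate 2 held 0.56 CPM from 2 reads. Every WT library therefore lay far above every KO library. The reads per depth were 332 times higher in WT, with an exact 95% interval of 91.6 to 2747 that covers counting error only. As log2(CPM + 0.5), a scale that shrinks differences of genes near 0, Adipoq fell by 6.17 in KO (SE 0.41, 95% interval -7.12 to -5.23, limma adjusted p = 0.00322). The adjusted p was 0.0683 without WT replicate 2, 0.0906 with the skeletal muscle score as a covariate and 0.488 in a voom fit of recovered reads, and it was 0.00489 without WT replicate 3.

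The adipocyte markers of the same libraries were set beside Adipoq. All 16 markers, among them Lpl, the lipase that frees fatty acids from circulating lipoproteins, had lower fitted values in KO, with a median log2 difference of -0.59 against -0.032 over all genes tested. None of the 16 had an adjusted p below 0.05, and 4, all lower in KO, had an unadjusted p below 0.05, against 1.82% of all genes tested. Lower fitted values were found for 56.7% of all genes. KO replicate 2 was unlike the other KO libraries. There 11 of the 16 markers lay inside the WT range, 4 above it and 1 below it, while in KO replicates 1 and 3 13 of 16 lay below it. Lpl was at 218 CPM in KO replicate 2, within the 197 to 341 CPM of WT, and at 102 and 147 CPM in KO replicates 1 and 3. Acsl1, with Lpl one of the 2 markers of highest mean CPM, was at 232 to 304 CPM in WT and 253 to 269 CPM in KO. Its log2 difference was -0.02 (SE 0.12). For every 1000 CPM of summed adipocyte markers, Adipoq reached 29.0, 43.0 and 32.0 CPM in the WT libraries. In KO replicate 2 it reached 0.394 on that scale.

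**Figure D1:**
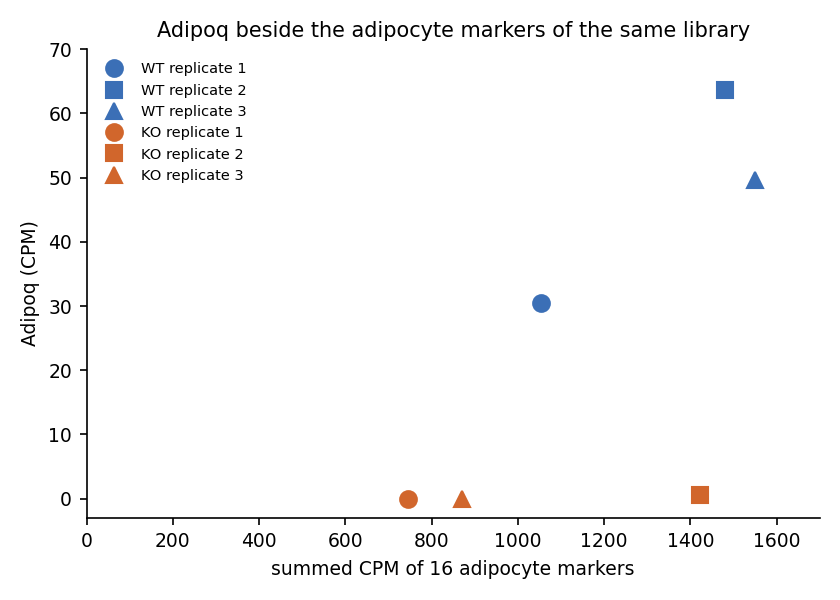
Adipoq in CPM (y axis) against the summed CPM of 16 adipocyte markers (x axis), with 1 point per library. KO replicate 2 lies at 1422 CPM of adipocyte markers, between the WT libraries at 1053 and 1549, and holds 0.56 CPM of Adipoq.

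Neither receptor gene separated the groups. Adipor1 (chromosome 1, 134415378 to 134433351, plus strand, 8 exons) was at 273, 237 and 235 CPM in WT and at 249, 225 and 252 CPM in KO. The KO values lay within or just under the WT range. The log2 difference was -0.04 (SE 0.10, 95% interval -0.28 to 0.21), an interval that runs from -17.4% to 15.3% relative to WT. Adipor2 (chromosome 6, 119353150 to 119417699, minus strand, 8 exons) was at 202, 238 and 225 CPM in WT and at 219, 215 and 254 CPM in KO. The groups overlapped here too. On the log2 scale KO minus WT was 0.05 (SE 0.11, 95% interval -0.21 to 0.31), or -13.4% to 23.7%. Within a library the ratio of Adipor2 to Adipor1 does not depend on scaling, and its log2 value was -0.16 ± 0.24 in WT and -0.08 ± 0.10 in KO (SD, n = 3). An exact two-sided permutation test of this difference gave p = 0.6 (0.8 adjusted over the 3 ratios tested), where 3 against 3 libraries cannot go below 0.1.

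T-cadherin, a cadherin held in the membrane by a lipid anchor instead of a membrane-spanning segment, had the smallest p of the 9 genes other than Adipoq. Cdh13 (chromosome 8, 118140017 to 119324929, plus strand, 14 exons) was at 86.9, 116 and 94.3 CPM in WT and at 85.9, 79.0 and 87.6 CPM in KO. KO replicate 3 was above WT replicate 1, so the groups overlapped by a single pair of libraries. In the fit the log2 difference was -0.23 (SE 0.13, 95% interval -0.53 to 0.08, unadjusted p = 0.124, limma adjusted p = 0.998). It was -0.11 without WT replicate 2 and -0.32 without WT replicate 1, where the unadjusted p was 0.0492 and the adjusted p 0.954. Endothelial and smooth muscle cells are known to carry T-cadherin, and 0 of their markers had an adjusted p below 0.05. Of 12 endothelial markers 10 had lower fitted values in KO (median -0.12), with sums of 197 to 221 CPM in WT and 139 to 215 CPM in KO, and of 7 smooth muscle markers 7 had (median -0.42), against 56.7% of all genes tested. An unadjusted p below 0.05 was found for 2 endothelial markers, both lower in KO, and 0 smooth muscle markers. Of all genes tested 1.82% reached that level with a lower value in KO. Groups did not overlap for 2 endothelial and 0 smooth muscle markers, against 7.84% of all genes. The endothelial score, the mean log2(CPM + 0.5) of the 12 markers, was 3.73 to 3.91 in WT and 3.25, 3.75 and 3.76 in KO. Their part in the Cdh13 values was not tested. Among 7 other cadherins, 4 were lower and 3 higher in KO. An unadjusted p below 0.05 was found for 0 of the 7, against 2.88% of all genes tested. Cdh3 was at 63.7 to 130.5 CPM in WT and 53.8 to 93.0 CPM in KO, and Cdh4 at 23.2 to 34.2 CPM and 28.8 to 33.9 CPM. Cdh5, the cadherin of endothelial junctions, was at 29.8 to 37.4 CPM in WT and at 19.4, 36.4 and 36.4 CPM in KO.

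Appl1 (chromosome 14, 26918986 to 26970611, minus strand, 22 exons), which links the receptors to downstream kinases, was at 90.8, 104 and 72.0 CPM in WT and at 93.6, 91.4 and 90.5 CPM in KO. The KO libraries were closer together than the WT libraries and lay within their range. The log2 difference was 0.06 (SE 0.14, 95% interval -0.27 to 0.39).

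**Figure D2:**
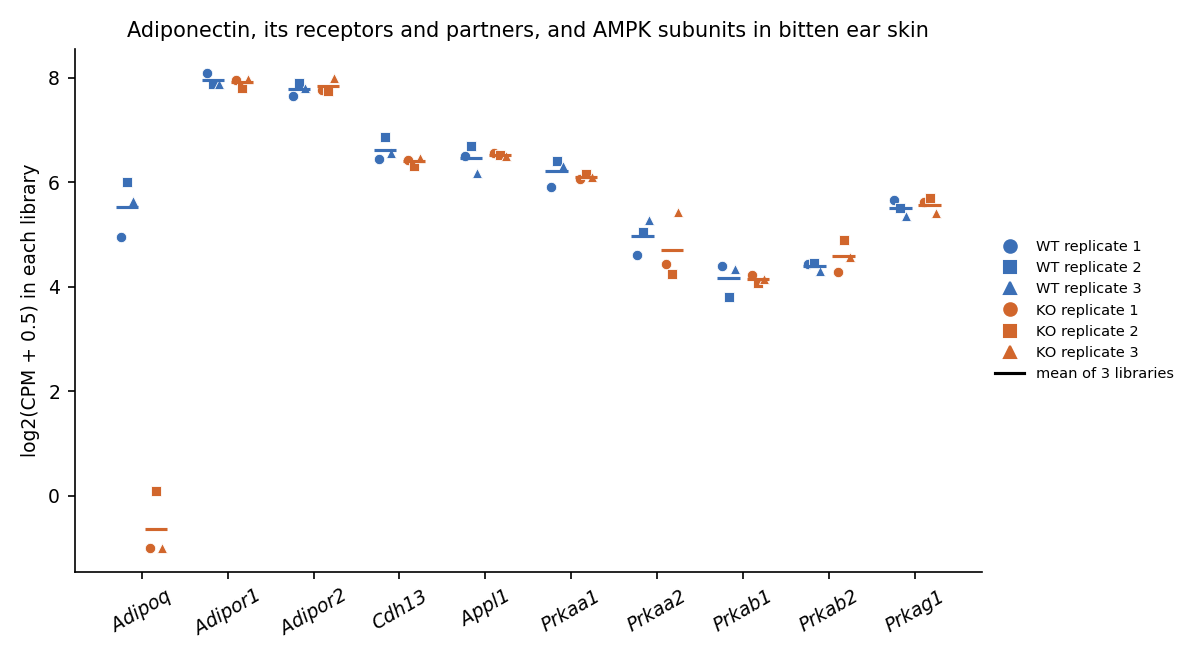
log2(CPM + 0.5) of the 10 genes (x axis) in each library, with WT in blue, KO in orange, a marker shape per replicate number and a bar at the group mean. Adipoq separates the groups, and the WT and KO points of the other 9 genes overlap.

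The catalytic subunits of AMPK differed in how much they varied. Prkaa1 (chromosome 15, 5143861 to 5181899, plus strand, 9 exons), which encodes the alpha1 subunit found in most cell types, was at 60.0, 84.8 and 79.0 CPM in WT and at 66.9, 70.6 and 68.2 CPM in KO. All KO values lay inside the WT range. On the log2 scale KO minus WT was -0.11 (SE 0.14, 95% interval -0.44 to 0.23). It was -0.25 without WT replicate 1 and -0.0065 without WT replicate 2. Prkaa2 (chromosome 4, 105029649 to 105109898, minus strand, 9 exons), whose alpha2 subunit is prominent in muscle, was at 24.0, 32.5 and 38.4 CPM in WT and at 21.2, 18.5 and 42.6 CPM in KO. KO replicate 3 was the highest and KO replicate 2 the lowest of all 6 libraries. In the fit the log2 difference was -0.27 (SE 0.32, 95% interval -1.02 to 0.47), the widest interval of the 9 genes, from -50.5% to 38.3%. Prkaa2 spanned 1.18 on the log2 scale over the libraries, more than 78.6% of all genes tested, while Adipor1, Adipor2 and Prkag1 spanned 0.28, 0.33 and 0.35, less than the median gene at 0.68.

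The Prkaa2 pattern moved with skeletal muscle markers. KO replicates 1 and 2, which were low in Prkaa2, had 18 and 16 of the 18 muscle markers below the WT range, and KO replicate 3, which was high, had 2 below it, 13 inside it and 3 above it. The mean log2(CPM + 0.5) of the 18 markers was 7.48, 7.79 and 7.98 in WT and 6.81, 7.02 and 7.87 in KO. The genes whose centred values lay closest to those of Prkaa2 over the 6 libraries were 3425401B19Rik, Clcn1 and Fam78a, with root mean square differences of 0.077, 0.085 and 0.096 on the log2 scale. Clcn1, the chloride channel of skeletal muscle, was at 6.46, 7.90 and 10.9 CPM in WT and at 6.15, 4.97 and 11.2 CPM in KO. These genes were picked for closeness to Prkaa2 in the same libraries, so their likeness to it follows from the choice. The sign of the Prkaa2 difference turned with the muscle score as a covariate, to 0.30 (unadjusted p = 0.164, adjusted p = 0.947). Without KO replicate 3 it was -0.64 (unadjusted p = 0.0312, adjusted p = 0.9997). All 18 muscle markers had lower fitted values in KO, against 56.7% of all genes tested, so the score and the genotype were not independent. The part of muscle in the Prkaa2 values was not tested. The genes closest to Adipoq by the same rule were Mup22, Plac9b and Gm9780. Their root mean square differences were 1.65, 2.13 and 2.13, a measure that grows with the span of a gene. Plac9b and Gm9780 had the same value in every library and count as 1 gene.

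**Figure D3:**
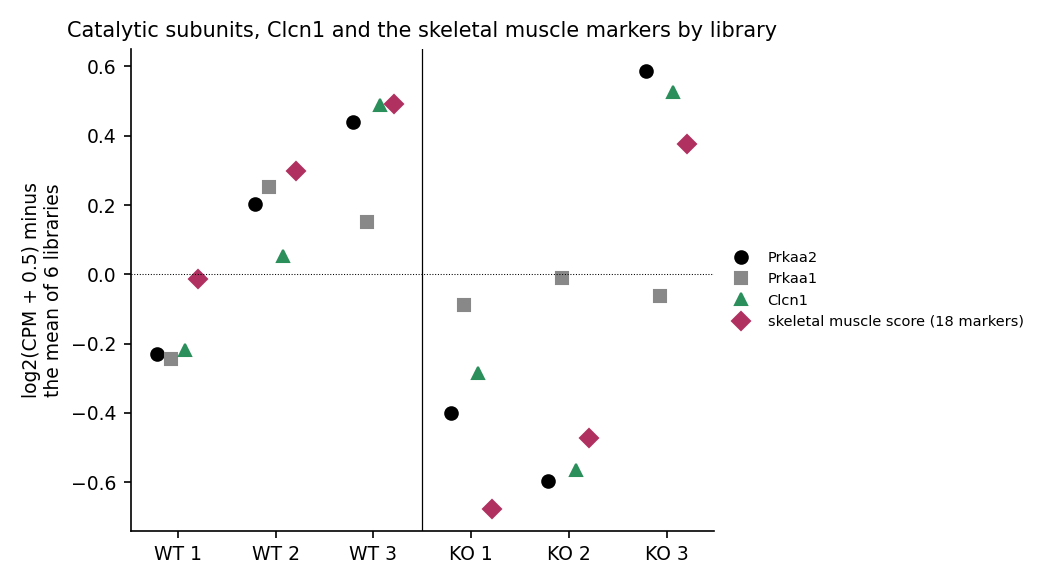
log2(CPM + 0.5) of Prkaa2, Prkaa1 and Clcn1 and the skeletal muscle score, each minus its mean over the 6 libraries (y axis), by library (x axis). Prkaa2, Clcn1 and the muscle score are all below 0 in KO replicates 1 and 2 and above 0 in KO replicate 3. Clcn1 was picked for its closeness to Prkaa2 in these libraries, so its match follows from the choice.

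The beta and gamma subunits did not separate the groups. Prkab1 (chromosome 5, 116013586 to 116024503, minus strand, 7 exons), the beta1 scaffold, was at 20.6, 13.4 and 19.8 CPM in WT and at 18.4, 16.3 and 17.3 CPM in KO. All 3 KO values lay inside the WT range. The log2 difference was -0.03 (SE 0.20, 95% interval -0.49 to 0.44). Prkab2 (chromosome 3, 97658211 to 97673812, plus strand, 8 exons), the beta2 scaffold, was at 21.3, 21.6 and 19.3 CPM in WT and at 19.1, 29.1 and 23.2 CPM in KO. KO replicates 2 and 3 exceeded every WT library and KO replicate 1 was the lowest. On the log2 scale KO minus WT was 0.18 (SE 0.18, 95% interval -0.25 to 0.60). Leaving out KO replicate 2 gave 0.025, and leaving out KO replicate 1 gave 0.32. Prkag1 (chromosome 15, 98812797 to 98831508, minus strand, 12 exons), the widespread gamma1 subunit, was at 50.1, 45.2 and 40.2 CPM in WT and at 48.5, 51.3 and 42.0 CPM in KO. The groups overlapped. In the fit the log2 difference was 0.07 (SE 0.14, 95% interval -0.25 to 0.38).

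Across the 9 genes other than Adipoq, the groups overlapped in all 9, against groups that did not overlap in 7.84% of all genes tested, and 0 of the 9 had an unadjusted p below 0.05, against 2.88% of all genes. The limma adjusted p was 0.998 for each. Fitted values were lower in KO for 5 of the 9, against 56.7% of all genes tested, and higher for 4, with a median log2 difference of -0.026 (-0.032 over all genes tested). The SE ranged from 0.10 to 0.32, so that these data bound the differences without showing that the levels were equal. The difference changed sign in at least 1 alternative for Adipor1, Adipor2, Appl1, Prkaa2, Prkab1 and Prkag1.

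**Figure D4:**
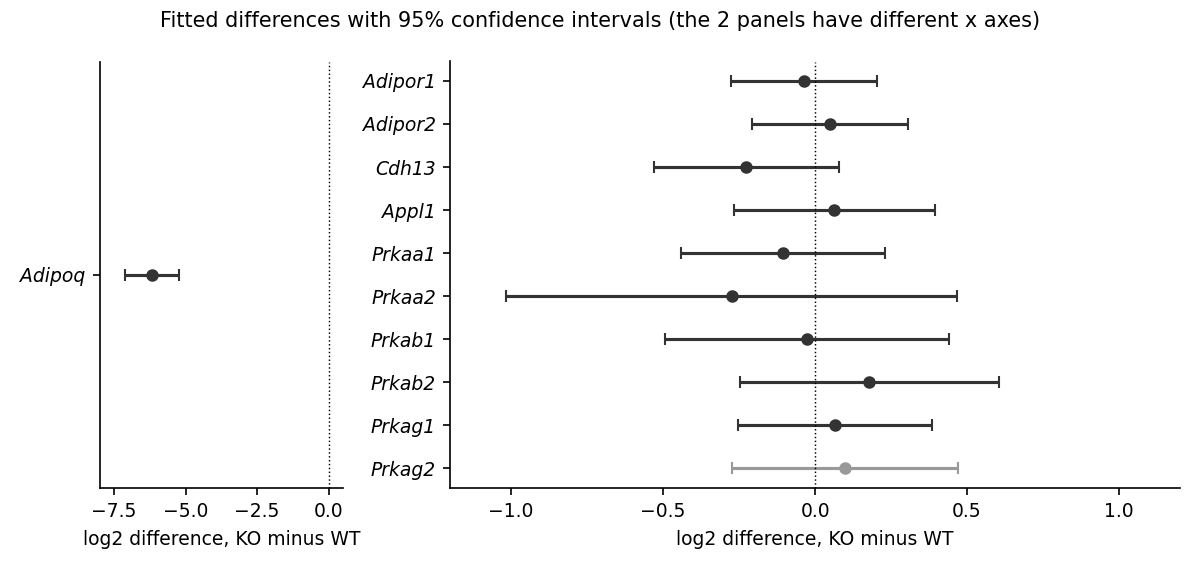
Fitted log2 differences, KO minus WT (x axis), with 95% confidence intervals, for Adipoq (left, on its own axis) and for the other 9 genes and Prkag2 (right, with Prkag2 in grey). The interval of Adipoq lies below 0, and the others all include 0.

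Levels of different genes were compared as CPM per kilobase of transcript (the longest protein-coding GENCODE transcript). In WT skin Adipor1 was the highest of the 10, at 72.0 ± 6.21 CPM per kb (SD, n = 3), followed by Adipor2 at 52.9 ± 4.37, and the libraries of the pair did not overlap. Adipoq came next at 37.1 ± 12.9, with libraries that overlapped those of Adipor2 and of Prkag1 at 27.3 ± 2.99. Cdh13 at 26.2 ± 4.05 overlapped Prkag1 and lay above Prkaa1 at 16.03 ± 2.79. Appl1 at 11.6 ± 2.09 overlapped both Prkaa1 and Prkab1, the latter at 8.58 ± 1.88. Prkab2 at 4.14 ± 0.25 and Prkaa2 at 3.97 ± 0.91 were the lowest and overlapped. In KO skin the order was the same for the 9 genes other than Adipoq, and Adipoq moved from the third place to the last, at 0.145 ± 0.25 CPM per kb.

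Per kilobase, a major isoform made up most of each AMPK subunit class in both groups. Prkaa1 contributed 80.2% ± 2.05 of the alpha transcripts in WT and 81.4% ± 7.19 in KO (SD, n = 3). The KO libraries were more spread, at 84.4%, 86.7% and 73.3%, since Prkaa2 was high in KO replicate 3. Prkab1 contributed 66.9% ± 6.14 of the beta transcripts in WT and 63.7% ± 6.27 in KO. Prkag1 contributed 77.0% ± 2.77 of the gamma transcripts in WT and 76.4% ± 2.498 in KO, with Prkag2 making up 22.2% and 22.6%. Prkag3, the gamma subunit of fast skeletal muscle, was under the expression filter. It was at 0.484, 0.61 and 1.32 CPM in WT and at 1.82, 0.841 and 0.588 CPM in KO, from 2 to 12 reads a library. In plain CPM, not per kilobase, the log2 ratio of Prkaa2 to Prkaa1 was -1.24 ± 0.18 in WT and -1.40 ± 0.65 in KO (exact two-sided permutation p = 0.8, adjusted p = 0.8). The log2 ratio of Prkab2 to Prkab1, also in plain CPM and so not corrected for the longer Prkab2 transcript, was 0.23 ± 0.38 in WT and 0.43 ± 0.38 in KO (exact two-sided permutation p = 0.5, adjusted p = 0.8). Prkag2, which is outside the 10 genes, was at 25.6 to 27.0 CPM in WT and 23.5 to 33.3 CPM in KO, a log2 difference of 0.10 (SE 0.16, 95% interval -0.27 to 0.47).

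**Figure D5:**
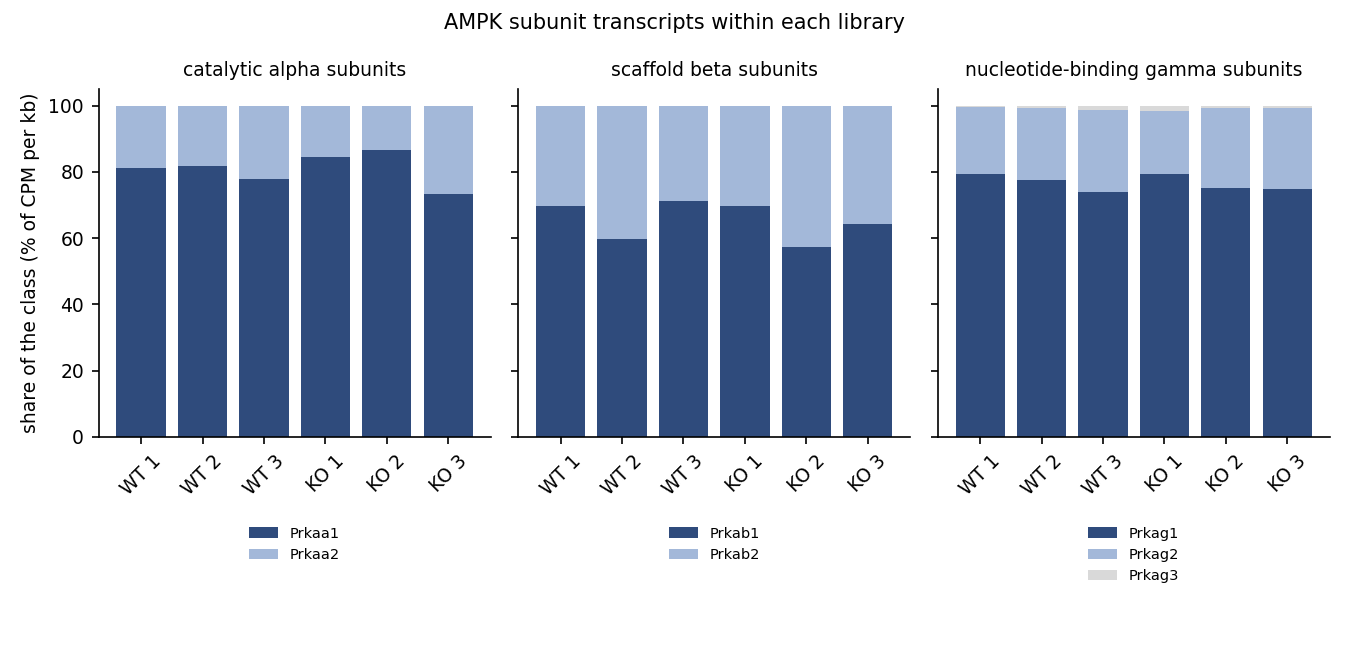
Share of each AMPK subunit gene in the CPM per kb of its class (y axis, in percent) in each library (x axis). Prkaa1, Prkab1 and Prkag1 make up most of their class in all 6 libraries.

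The wider pathway was described with 13 gene lists, of which 120 distinct genes were tested. None had an adjusted p below 0.05. An unadjusted p below 0.05 was found for 7 of them (5.83%), against 2.88% of all genes tested. Of the 7, 3 were lower in KO, against 1.82% of all genes, and 4 higher, against 1.06%. Groups did not overlap for 12 of the 120, against 7.84% of all genes. Fitted values were lower in KO for 61, against 56.7% of all genes, and higher for 59, and the median log2 difference was -0.0024.

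The lists of AMPK regulators, substrates and related kinases gave 0 genes at an unadjusted p below 0.05, against 2.88% of all genes tested. This held for 8 upstream kinases and their partners (median log2 difference -0.013), in which Stk11 (LKB1, the main upstream kinase) was at 61.0 to 66.0 CPM in WT and 55.0 to 62.8 CPM in KO. Camkk1, a calcium-dependent upstream kinase, was at 28.3, 45.2 and 48.8 CPM in WT and at 45.5, 42.6 and 50.2 CPM in KO, with overlapping groups. It held for 8 phosphatases and brakes (median -0.026), in which all 3 KO values of Fnip2 (79.3 to 85.1 CPM) exceeded those of WT (67.4 to 75.5 CPM). Ppm1e, a phosphatase that acts on AMPK, was at 1.21 to 2.64 CPM in WT and 2.24 to 4.70 CPM in KO. It held for 12 AMPK-related kinases (median 0.078). Brsk2 among them was at 0.33 to 0.726 CPM in WT and 0.759 to 2.06 CPM in KO, a log2 difference of 0.94 (SE 0.47) at levels of a few reads. Nuak1 was at 61.7 to 124 CPM in WT and 109 to 130 CPM in KO. Of 17 AMPK substrates 11 were lower and 6 higher in KO (median -0.17). Acaca, the cytosolic acetyl-CoA carboxylase that makes malonyl-CoA for fatty acid synthesis, was at 176, 162 and 153 CPM in WT and at 143, 143 and 137 CPM in KO. The groups did not overlap, and the log2 difference was -0.21 (SE 0.10, unadjusted p = 0.0574). Acacb, the mitochondrial form, was at 64.5 to 92.5 CPM in WT and 55.7 to 70.3 CPM in KO.

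In the PPAR-alpha arm 1 of 12 genes had an unadjusted p below 0.05. Cpt1a, which brings fatty acids into mitochondria for oxidation, was at 132, 144 and 149 CPM in WT and at 178, 175 and 176 CPM in KO. All KO values exceeded all WT values, with a log2 difference of 0.31 (SE 0.09, unadjusted p = 0.0104, limma adjusted p = 0.998). Among 7 genes of ceramide breakdown, the enzymatic activity ascribed to the receptors, 2 were lower and 5 higher in KO. An unadjusted p below 0.05 was found for 0 of the 7, against 2.88% of all genes tested. Sphk1, a sphingosine kinase, was at 54.0 to 64.5 CPM in WT and 60.5 to 73.4 CPM in KO, and Acer1, an alkaline ceramidase of the epidermis, at 82.5 to 114 CPM and 106 to 130 CPM. Among 8 adaptors and binding partners of the receptors, 2 were lower and 6 higher in KO. For 1 of the 8 the unadjusted p was below 0.05, against 2.88% of all genes tested. Irs2, an insulin receptor substrate, was at 52.3, 57.4 and 68.7 CPM in WT and at 38.2, 46.5 and 43.8 CPM in KO. Its groups did not overlap, and the log2 difference was -0.46 (SE 0.14, unadjusted p = 0.0127, limma adjusted p = 0.998).

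Genes that make the hormone were also examined. Of 9 transcription factors with a known role at the Adipoq gene, 8 had lower fitted values in KO, against 56.7% of all genes tested, and 2, both lower, had an unadjusted p below 0.05, against 1.82% of all genes. Most of these differences were small. The median log2 difference was -0.084, and the median absolute difference was 0.094, against 0.139 over all genes tested. Pparg, the master regulator of fat cells and one of the 16 adipocyte markers above, was at 13.5, 13.6 and 15.7 CPM in WT and at 5.92, 11.8 and 7.05 CPM in KO. All 3 KO libraries lay below the WT range, the nearest being KO replicate 2, the KO library with the most adipocyte marker reads, and the part of those markers was not tested. The log2 difference was -0.81 (SE 0.27, unadjusted p = 0.0171, limma adjusted p = 0.998). Atf3, a stress-induced factor, was at 24.2, 31.9 and 36.9 CPM in WT and at 23.8, 23.3 and 18.2 CPM in KO. The log2 difference was -0.49 (SE 0.20, unadjusted p = 0.0383, limma adjusted p = 0.998). The lowest WT and the highest KO value of Atf3 were nearly equal. Leaving out a library gave a limma unadjusted p from 0.00978 (WT replicate 1) to 0.126 (KO replicate 3). Among 9 genes of adiponectin assembly and secretion, 4 were lower and 5 higher in KO. For 1 of the 9 the unadjusted p was below 0.05, against 2.88% of all genes tested. Plod2, a collagen lysyl hydroxylase, was at 4.11, 5.77 and 10.4 CPM in WT and at 11.1, 15.8 and 10.6 CPM in KO. Its log2 difference was 0.91 (SE 0.34, limma unadjusted p = 0.0294). WT replicate 3 and KO replicate 3 were nearly level in Plod2.

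Relatives of the hormone and of its receptors gave 1 gene each at an unadjusted p below 0.05, against 2.88% of all genes tested. Of 15 C1q/TNF-related genes, C1qtnf6 was at 8.47, 13.02 and 10.6 CPM in WT and at 13.1, 18.2 and 23.2 CPM in KO, a log2 difference of 0.72 (SE 0.26, unadjusted p = 0.0246). The highest WT and the lowest KO value were nearly equal. Of 8 other PAQR genes, Paqr3, a Golgi protein of the receptor family, was at 26.3, 23.2 and 25.4 CPM in WT and at 38.5, 44.3 and 33.0 CPM in KO. The groups were well separated. On the log2 scale KO minus WT was 0.61 (SE 0.15, 95% interval 0.26 to 0.96), with the smallest unadjusted p of the 120 genes (0.0039, limma adjusted p = 0.998).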

How the data were processed

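RNA-seq of bitten ear skin was analysed in 3 WT and 3 KO libraries, grouped by the genotype in the labels. The authors aligned reads to the mouse genome (mm10) with STAR (version 2.7.3a) and quantified genes in Partek Flow, and the deposited values are CPM scaled by the library total, with an offset of 0.0001. The labels and methods do not state use of read strand, and no listed gene overlapped any of the 10 genes. Depth was recovered from the size of the lowest values, of which 91.9% to 92.6% under 20 reads were within 0.1 of a whole read, so reads are estimates. Genes averaging at least 1 CPM (14306) were fitted as log2(CPM + 0.5) with limma (version 3.58.1, R 4.3.3, lmFit and eBayes with trend, two-sided, no covariate), with Benjamini-Hochberg adjustment over all of them, and 1361 genes were not tested. Intervals are 95%. The fit was also run on simulated counts, drawn with the same dispersion for every gene. The 10 genes, gene lists and tests were chosen with earlier results of these data known. Named genes were the 10, from each pathway list every gene at an unadjusted p below 0.05 or else the 2 of smallest p, marker genes from the 2 of highest mean CPM per list, and the 3 genes most like any of the 10 that spanned at least 1 on the log2 scale. Gene positions and promoters are from RefSeq (GRCm38.p6). Transcript lengths and exon counts are those of the longest protein-coding GENCODE transcript of each gene. Other pseudocounts, filters, scalings, covariates, a replicate block and fits without a library were alternatives.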

Additional observations from a re-analysis of the deposited data

How the results depend on the processing

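Under each of 19 alternatives Adipoq was lower in KO, by -7.94 to -4.46 on the log2 scale, and 16 kept an adjusted p below 0.05. The exceptions were the skeletal muscle covariate (-6.19), voom on recovered reads with library totals (-7.88) and the fit without WT replicate 2 (-5.94), and in each of them 0 of the 10 genes were called. Voom with library totals was chosen after seeing the data, and the planned voom with TMM factors was not run. Leaving out each library in turn gave -6.54 to -5.94 for Adipoq, 0 to 1 of the 10 genes called, 1 to 2 at an unadjusted p below 0.05 (the second was Cdh13 without WT replicate 1 and Prkaa2 without KO replicate 3), 6 to 9 pathway genes at that level, 0 to 16 genes called and 309 to 708 at that level over all genes, with the highest counts without WT replicate 3 (16 and 708). Called genes over all genes numbered 0 with the skeletal muscle covariate, 9 with the hair follicle covariate and 1 with voom, and 665 and 872 reached an unadjusted p below 0.05 with those covariates, with 13 pathway genes under the hair follicle covariate. The cause was not tested.

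The 9 other genes had 0 calls under every alternative. Signs turned as follows. Quantile normalization gave 0.0034 for Adipor1 and 0.028 for Prkab1, the median of ratios 0.0022 for Prkab1, and the hair follicle covariate 0.0084 for Adipor1. The skeletal muscle covariate gave -0.00075 for Appl1, 0.30 for Prkaa2, -0.089 for Prkag1 and 0.12 for Cdh5. Leaving out a library gave -0.074 to 0.034 for Adipor1, -0.025 to 0.10 for Adipor2, -0.080 to 0.18 for Appl1, -0.22 to 0.082 for Prkab1, -0.014 to 0.15 for Prkag1, -0.026 to 0.22 for Prkag2, -0.029 to 0.36 for Camkk1 and -0.34 to 0.11 for Cdh5. Without a change of sign it gave -0.25 to -0.0065 for Prkaa1, 0.025 to 0.32 for Prkab2, -0.32 to -0.11 for Cdh13 and -0.64 to -0.044 for Prkaa2. It gave -0.050 to 0.17 for the log2 ratio of Adipor2 to Adipor1, -0.53 to 0.083 for that of Prkaa2 to Prkaa1 and 0.0082 to 0.42 for that of Prkab2 to Prkab1.

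Deviations of same-numbered libraries from their group means correlated at 0.38, -0.31 and -0.22. Those of differently numbered libraries correlated at -0.38 to 0.45. With 3 libraries a group these values cannot decide whether replicate numbers pair the samples. With a replicate block the adjusted p of Adipoq was 0.0128, 1 of the 10 genes was called, and 591 genes had an unadjusted p below 0.05. At this depth a gene at 0 reads could be at up to 0.455 to 0.881 CPM, which limits what can be said of Adipoq in KO skin.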

Other observations

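The genes next to Adipoq on chromosome 16 in the deposited table, chosen after their values were seen, had groups that overlapped. Eif4a2, a translation initiation helicase 32404 bases away, was at 81.2, 91.7 and 65.1 CPM in WT and at 66.7, 71.0 and 82.9 CPM in KO. The log2 difference was -0.10 (SE 0.15). Rfc4, a clamp loader subunit for DNA replication 18806 bases away, had a log2 difference of 0.44 (SE 0.28, unadjusted p = 0.157). St6gal1, a sialyltransferase 66772 bases away on the other side, was at 19.4, 25.2 and 28.5 CPM in WT and at 11.99, 33.6 and 19.4 CPM in KO, a log2 difference of -0.27 (SE 0.35). Masp1, a protease of the lectin complement pathway at 293817 bases, had a log2 difference of -0.38 (SE 0.19, unadjusted p = 0.0815). The limma adjusted p was 0.998 for each of these 4 genes.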
